A study of Caenorhabditis elegans with 2 samples.

Results

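The cytosolic ribosomal protein genes of Caenorhabditis elegans were examined for chromatin immunoprecipitation and sequencing (ChIP-seq) peaks of TTX-3, a LIM homeodomain transcription factor known for specifying the AIY interneurons. Members were chosen by name alone, as the protein-coding genes called rpl or rps followed by a number, which gave 78 of the 19985 protein-coding genes of the annotation: 47 genes of the large subunit and 31 of the small subunit. All values come from 1 group of 2 biological replicates. These were whole hermaphrodite late embryos of strain OP68 (unc-119(ed3) III; wgIs68), collected 4 hours after synchronization by egg bleaching. The strain carries an integrated transgene for TTX-3 with a C-terminal GFP-FLAG tag, and DNA was recovered with an antibody against GFP. Whole embryos mix all cell types, so the cells that gave a peak cannot be told apart, and the lists hold no expression values against which a cell type could be checked. A single group allows no comparison between conditions, and an untagged strain was not analysed here.

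The ribosome joins a large subunit, which forms peptide bonds, and a small subunit, which reads the messenger RNA. Each ribosomal protein binds ribosomal RNA or its neighbours in the particle, and the proteins are needed in matched amounts. Their genes are among the most highly transcribed in growing cells. Several of these genes carry small nucleolar RNA (snoRNA) genes in their introns, whose products guide the modification of ribosomal RNA.

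A peak list gives each region a summit, the base of highest enrichment, and a signal value, the strength given by the authors' peak caller, whose unit is not stated. Each gene was given its strongest summit between 1000 bp upstream and 300 bp downstream of any annotated 5' end. The pooled list holds 30000 regions from both replicates, with a median signal of 26.9. Per its deposited description it lists peaks together with background regions, before the reproducibility filter, so a pooled summit alone is not a called peak. The optimal list holds the authors' 700 reproducible peaks, which are the 700 strongest of the pooled list, with a lowest signal of 72.5. Each replicate's own list also holds 30000 regions of this unfiltered kind, with a median of 15.5 in replicate 1 and 16.8 in replicate 2, and no scale common to the lists is stated. The lists hold no read counts, so the sequencing depth is unknown.

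The bases around 7 member summits are printed: 6 because they hold ACCGTA, a sequence more frequent at member summits than at those of other genes, and that of rps-28 as a strong summit without it. Each is the 101 bp centred on a summit of the optimal list, read from the WBcel235 (ce11) genome, 5' to 3' on the strand of the gene. Capitals mark ACCGTA or its reverse complement TACGGT, and GCGCAC or its reverse complement GTGCGC.
rpl-3: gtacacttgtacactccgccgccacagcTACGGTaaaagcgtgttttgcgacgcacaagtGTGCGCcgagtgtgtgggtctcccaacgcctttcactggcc
rpl-15: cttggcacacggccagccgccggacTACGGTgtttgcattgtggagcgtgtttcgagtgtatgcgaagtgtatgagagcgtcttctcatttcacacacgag
rps-28: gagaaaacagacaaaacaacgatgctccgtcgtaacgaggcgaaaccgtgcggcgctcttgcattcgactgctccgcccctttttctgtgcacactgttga
rpl-20: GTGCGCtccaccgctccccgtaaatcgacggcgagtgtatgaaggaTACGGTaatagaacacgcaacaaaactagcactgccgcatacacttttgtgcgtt
rps-1: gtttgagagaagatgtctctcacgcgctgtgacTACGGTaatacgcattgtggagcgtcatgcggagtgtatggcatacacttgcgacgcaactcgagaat
rpl-43: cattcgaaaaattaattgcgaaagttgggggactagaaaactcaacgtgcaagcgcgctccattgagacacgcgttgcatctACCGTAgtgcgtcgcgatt
rpl-11.2: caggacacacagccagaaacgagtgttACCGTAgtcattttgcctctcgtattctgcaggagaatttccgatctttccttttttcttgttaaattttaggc
The windows are chrIII:3867539-3867639 (plus strand) for rpl-3, chrIV:654871-654971 (minus strand) for rpl-15, chrIV:1659205-1659305 (plus strand) for rps-28 and chrIV:4750027-4750127 (minus strand) for rpl-20. Those of the other 3 genes are chrIII:4475602-4475702 (plus strand) for rps-1, chrII:14154487-14154587 (plus strand) for rpl-43 and chrX:2242892-2242992 (minus strand) for rpl-11.2. Of the 7 windows, 6 hold ACCGTA, and that of rps-28 holds neither sequence.

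Most ribosomal protein genes had a region of the unfiltered list in their promoter window, and 21 had a peak that passed the reproducibility filter. A pooled summit lay in the promoter window of 63 of 78 members (80.8%, exact 95% interval 70.3 to 88.8), against 7909 of the 19907 other protein-coding genes (39.7%), where the background over all protein-coding genes was 39.9%. An optimal summit lay in the window of 21 members (26.9%, 17.5 to 38.2), against 580 other genes (2.91%), with a background of 3.01%. These exact (Clopper-Pearson) intervals cover counting error over genes only, and neighbouring genes can share a summit. The 63 members shared 61 summits, since 2 pairs of members had the same one, and the 21 members with an optimal summit had 21 different ones.

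The signal of member summits was also higher than that of other genes' summits. Among the 63 members with a pooled summit, the signal ran from 20.8 (rps-11) to 294.7 (rpl-3), with a median of 49.3 (quartiles 35.4 and 82.3), against a median of 30.8 (24.6 and 41.5) among the other genes with one. Their median rank in the pooled list was 1925, against 10247 for the other genes. The summits of 37 members (47.4% of 78) were among the 3000 strongest of the list, against those of 1777 other genes (8.93%). At the weak end, 7 members had a summit ranked below 15000. An optimal summit was held by 33.3% of the members with a pooled summit, against a background of 7.54% of all genes with a pooled summit.

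**Figure D1:**
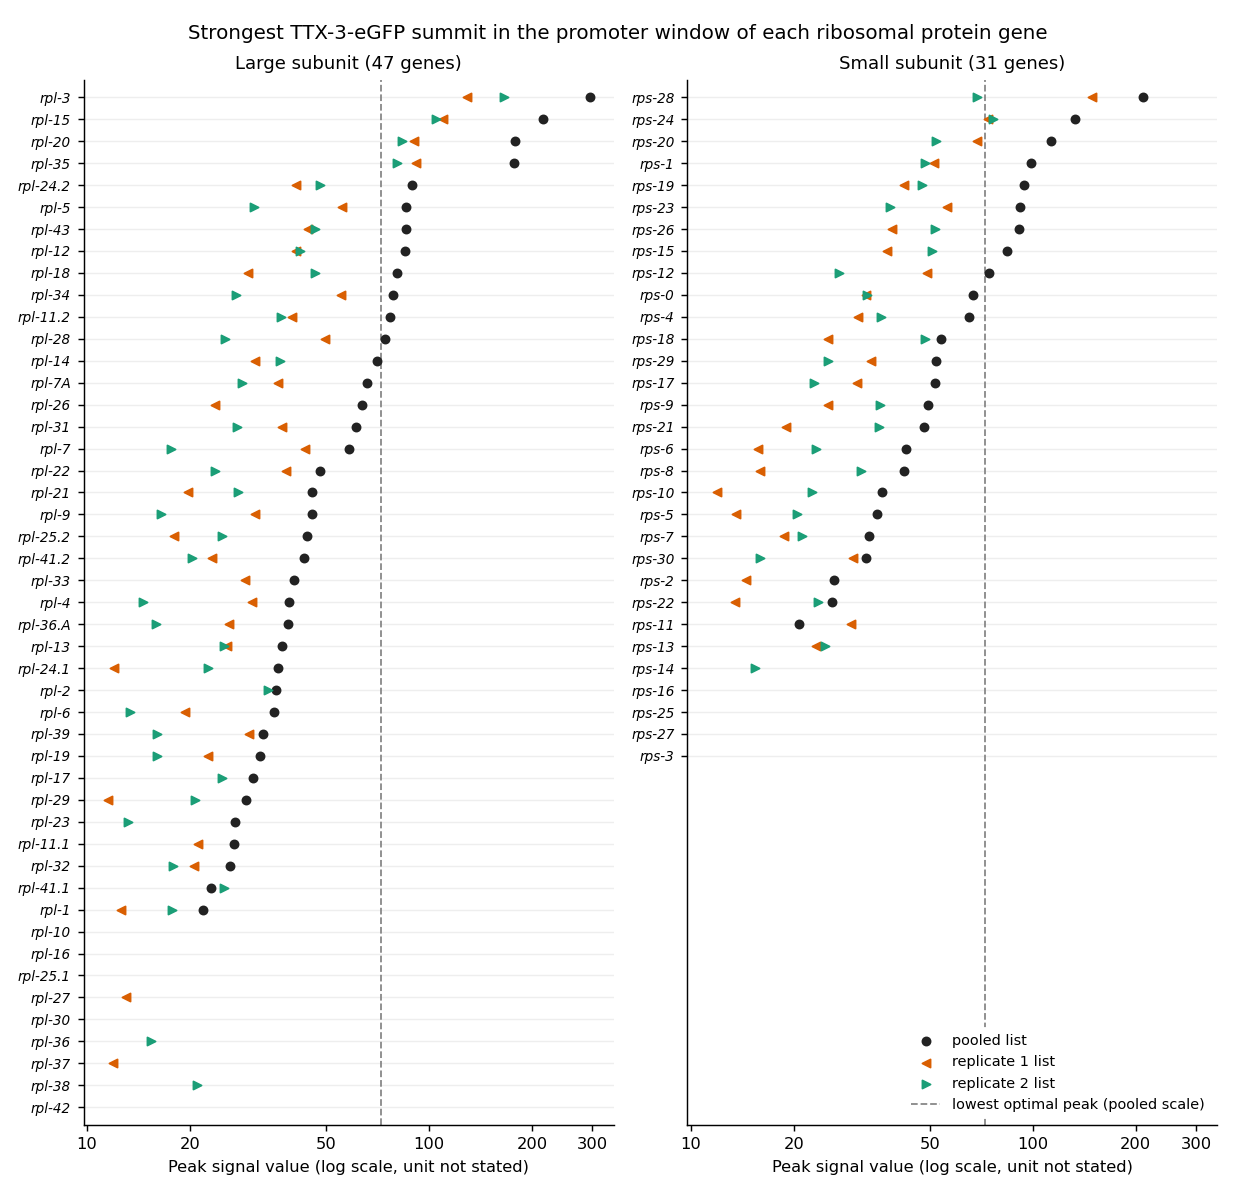
Signal value (horizontal, log scale, unit not stated) of the strongest summit in the promoter window of each ribosomal protein gene (vertical), for large subunit genes on the left and small subunit genes on the right. Points give the pooled list and each replicate's own list, each on its own scale, a missing point means no summit in the window, and the dashed line marks the lowest optimal peak at 72.5 on the pooled scale, with 12 large and 9 small subunit genes to its right.

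Genes of both subunits carried summits at like shares. A pooled summit was present at 38 of 47 large subunit genes (80.9%, 66.7 to 90.9) and at 25 of 31 small subunit genes (80.6%, 62.5 to 92.5). An optimal summit was present at 12 large subunit genes (25.5%, 13.9 to 40.3) and at 9 small subunit genes (29.0%, 14.2 to 48.0). The median pooled signal was 45.5 over the 38 large subunit genes and 52.1 over the 25 small subunit genes. Both intervals are wide and overlap, and a difference between the subunits was not tested.

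Of the 5 strongest member summits, 4 lay at large subunit genes and 1 at a small subunit gene. The summit of rpl-3, which encodes uL3, a protein close to the peptidyl transferase centre, had a pooled signal of 294.7 and ranked 41 in the pooled list. It lay 265 bp upstream of the 5' end between genes, and its signal was 129 in replicate 1 and 166 in replicate 2. At rpl-15 (eL15) the summit lay 345 bp upstream and ranked 91, with 215.7 in the pooled list, 109.5 in replicate 1 and 104.7 in replicate 2. These were the members with the highest signal in the replicate 2 list as well, while rps-28 had the highest in that of replicate 1. The summit of rps-28, for the small subunit protein eS28, had a pooled signal of 210.4 at 436 bp upstream, and its replicate values differed most among the optimal member summits, with 148.5 in replicate 1 and 68.8 in replicate 2. The summit of rpl-20 had 178.7 in the pooled list, 90.3 in replicate 1 and 83.1 in replicate 2. The summit of rpl-35 (uL29), which sits beside the exit of the peptide tunnel, had 177.2, 91.4 and 80.4 in the same lists. These 5 summits were among the 138 strongest of the list. Above 100 there were also the summits of rps-24 (eS24), with 132.7 in the pooled list, 61.2 in replicate 1 and 76.6 in replicate 2, and of rps-20 (uS10), with 113.4, 68.8 and 52.2.

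The other 14 optimal member summits had pooled signals between 74.2 and 98.6. Their replicate 1 signal at the summit ran from 29.6 (rpl-18) to 56.0 (rps-23), and that of replicate 2 from 25.3 (rpl-28) to 51.8 (rps-26), without rps-1, which had no replicate 2 summit there. Among the small subunit genes, the pooled signal was 98.6 at rps-1, 94.0 at rps-19 (eS19), 91.8 at rps-23, 91.1 at rps-26 (eS26), 84.1 at rps-15 (uS19) and 74.4 at rps-12 (eS12). The product of rps-23, uS12, helps to hold decoding accurate. At the large subunit genes it was 89.3 at rpl-24.2, 85.8 at rpl-5, 85.6 at rpl-43, 84.9 at rpl-12, 80.6 at rpl-18 (eL18), 78.3 at rpl-34 (eL34), 76.9 at rpl-11.2 and 74.2 at rpl-28 (eL28). Of these, rpl-5 encodes uL18 and rpl-11.2 encodes uL5, which bind the 5S ribosomal RNA together, and rpl-12 encodes uL11 of the stalk base, where elongation factors dock. Just below the optimal list were rpl-14 (70.3, rank 756), rps-0 (66.9, rank 847), rpl-7A (65.7), rps-4 (65.3) and rpl-26 (63.6). The pooled member signals thus did not break at the boundary of the list. Of these, rpl-26 had 23.65 (rank 3925) in replicate 1 and no replicate 2 summit in its window.

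Both replicates showed the pattern. A summit of replicate 1 lay in the window of 62 members (79.5%, background 41.5%), and a summit of replicate 2 in that of 62 members (79.5%, background 40.9%). Both replicates had one at 55 members and neither at 9, while 7 members had one in replicate 1 alone and 7 in replicate 2 alone. Among the 700 strongest regions of each replicate, 16 members were found in replicate 1 (background 2.81%) and 16 in replicate 2 (background 2.7%). The number found among the 700 strongest of both was 10, against a background of 1.78% of all genes.

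Most optimal member summits were found in both replicates at the same place. A summit of each replicate lay within 100 bp of the pooled summit at 20 of 21 optimal member summits (95.2%), against 362 of 393 optimal summits of other genes (92.1%). The exception was rps-1, with a replicate 1 signal of 51.4 and no replicate 2 summit within 100 bp, although replicate 2 had one elsewhere in its window at 48.6. Over all member summits the share matched in both replicates was 38 of 61 (62.3%), against 2164 of 6839 (31.6%) for the other genes. These sets differ in strength, with median pooled ranks of 1925 for members and 10247 for other genes, and were not compared at equal rank. Over these 38 summits the rank correlation of the replicate signals was 0.681 (Spearman), given as a description because all points share the same libraries. The ratio of replicate 1 to replicate 2 had a median of 1.08 and ran from 0.343 at rps-21 to 2.48 at rpl-7. It exceeded 1.5 at 9 summits and was below 0.667 at 4.

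**Figure D2:**
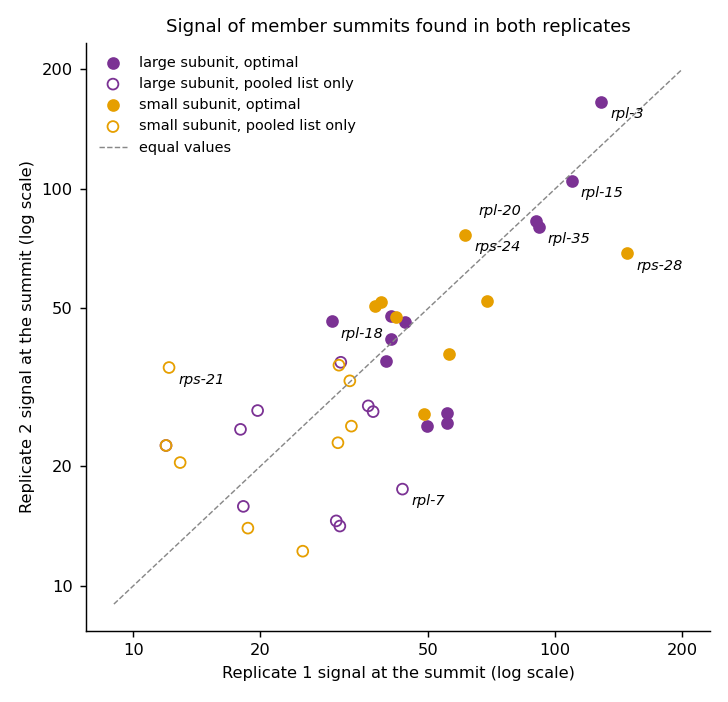
Signal in replicate 1 (horizontal) and replicate 2 (vertical), both on log scales, at the member summits found in both replicates within 100 bp of the pooled summit. Each point is a gene, colours give the subunit, filled points are optimal summits and the dashed line marks equal values; rpl-3 is highest in replicate 2, and rps-28 lies farthest to the right at 148.5.

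Most member summits lay in a narrow band upstream of an annotated 5' end. The median distance from the nearest annotated 5' end was −278 bp (quartiles −356 and −192), where a negative distance is upstream, against −292 bp (−594 and −75) for the other genes. The medians were close but the spread was not. Of the 63 members, 55 (87.3%) had the summit between 100 and 500 bp upstream, against 3260 of 7909 other genes (41.2%). None of the 63 had it downstream of the nearest 5' end, against 1411 other genes (17.8%). In 3 members it lay less than 100 bp upstream, and in 5 more than 500 bp upstream. The summit of rpl-19 lay in an intron of rpl-19 itself, 58 bp upstream of the nearer of its 2 annotated 5' ends. The optimal summits alone had a median of −299 bp over the 21 members, against −247 bp over 580 other genes, with 18 members (85.7%) against 357 other genes (61.6%) in the band. Large subunit genes had a median distance of −241 bp and small subunit genes of −296 bp. Distances run from annotated 5' ends, and many worm messenger RNAs are trans-spliced, so the annotated end can lie downstream of the start of transcription.

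**Figure D3:**
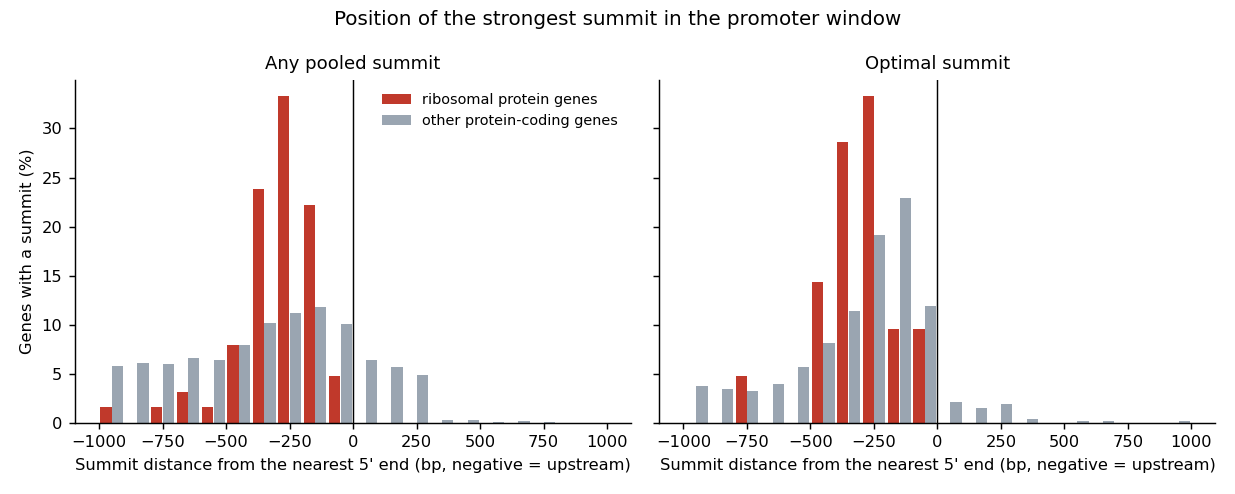
Distance of the strongest summit from the nearest annotated 5' end (horizontal, bp, bins of 100 bp, negative is upstream) against the share of genes with a summit (vertical, %). Red bars are the ribosomal protein genes and grey bars the other protein-coding genes, for any pooled summit on the left and optimal summits on the right; in both panels the highest red bar is 200 to 300 bp upstream, and no red bar lies right of 0.

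The optimal member summits lay mostly between genes. Of the 21, 18 (85.7%) were in no annotated gene, against 279 of 393 optimal summits of other genes (71.0%). The exceptions were rps-1, whose summit lies in the noncoding RNA genes F56F3.10 and F56F3.11, rps-26, with the summit in the 5' UTR of tmem-107, and rpl-24.2, with the summit in an intron of C03D6.1. Over all 61 member summits, 46 were intergenic, 10 lay in noncoding RNA or pseudogene annotations, 3 in introns, 2 in 5' UTRs and none in a coding exon. Those in introns included the summit of rpl-19, in its own intron. The summit farthest upstream among the optimal ones was that of rpl-43, at 757 bp, and those of rpl-12 and rpl-24.2 were nearest, at 87 and 97 bp.

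Many ribosomal protein genes share their upstream region with a gene on the other strand. A divergent 5' end lay within 1000 bp upstream of 47 of 78 members (60.3%), against 3682 other genes (18.5%) and a background of 18.7%. The share with an optimal summit was 14 of 47 (29.8%) among members with such a neighbour, against 306 of 3682 (8.31%) among other genes with one. It was 7 of 31 (22.6%) among members without such a neighbour, against 274 of 16225 (1.69%) among other genes without one. Members thus carried optimal summits both with and without such a neighbour. A pooled summit was present at 40 of the 47 (85.1%) and at 23 of the 31 (74.2%).

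At such promoters a summit cannot be assigned to 1 gene. Of the 21 optimal member summits, 15 also lay in the window of another gene, 14 of them a divergent neighbour, while that of rps-28 lay in the window of Y41D4B.4 on the same strand. The divergent neighbours were K11H12.8 (beside rpl-15), Y17G9B.5 (rpl-20), ekl-4 (rps-20), ifet-1 (rps-1), hsr-9 (rps-19), dpm-3 (rps-23), tmem-107 (rps-26), col-38 (rpl-5), Y48B6A.1 (rpl-43), lin-54 (rpl-12), F36A2.9 (rps-15), ppm-1.H (rpl-34), ska-3 (rps-12) and mrpl-49 (rpl-28). Among them, ifet-1 encodes a translational repressor, mrpl-49 a mitochondrial ribosomal protein, lin-54 a DNA-binding component of the DREAM complex and col-38 a cuticle collagen. The summit of rpl-12 was 87 bp from rpl-12 and 306 bp from lin-54, and that of rpl-5 was 319 bp from rpl-5 and 520 bp from col-38. The reverse held at rps-26, with 467 bp to rps-26 and 10 bp, downstream of the 5' end, to tmem-107, and at rpl-43, with 757 bp to rpl-43 and 164 bp to Y48B6A.1. The summit of rps-12 lay about midway, 145 bp from rps-12 and 148 bp from ska-3. The divergent neighbour was also the nearer gene at rpl-20, rps-20, rps-19, rps-23 and rpl-28. When each summit was given to the gene with the nearest 5' end, 14 of the 21 stayed with a ribosomal protein gene. The share over all protein-coding genes was not computed under this rule, so the 14 have no background.

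In 3 cases the divergent neighbours were ribosomal protein genes of opposite subunits. The genes rps-10 and rpl-24.1, with 5' ends 610 bp apart, shared a summit of pooled signal 36.2, with 12.0 in replicate 1 and 22.6 in replicate 2. The genes rpl-39 and rps-30, 499 bp apart, shared a summit of 32.6, with 29.8 in replicate 1 and 16.0 in replicate 2. The genes rps-14 and rpl-36, 663 bp apart, had no pooled summit and a signal of 15.4 in replicate 2 alone. None of these 3 shared promoters had an optimal summit.

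The 15 members without a pooled summit included genes of both subunits. They were rpl-10, rpl-16, rpl-25.1, rpl-27, rpl-30, rpl-36, rpl-37, rpl-38 and rpl-42 of the large subunit, and rps-3, rps-13, rps-14, rps-16, rps-25 and rps-27 of the small subunit. The gene rpl-42 is a member by its name, while RefSeq lists its product as a NAM-associated domain-containing protein. A replicate list gave a summit at some of them. The gene rps-13 had one in both replicates (23.3 in replicate 1 and 24.6 in replicate 2), rpl-27 (13.0) and rpl-37 (11.9) in replicate 1 alone, and rpl-38 (21.0), rpl-36 and rps-14 (15.4) in replicate 2 alone. The other 9 had none in any list, which means only that no region among the 30000 of each list lay there.

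Of these 15 genes, 4 lie directly behind another gene on the same strand, as genes inside worm operons do. The gap to the gene upstream was 97 bp for rpl-25.1 (behind glit-1), 105 bp for rpl-16 (behind lias-1), 109 bp for rps-16 (behind fib-1) and 119 bp for rpl-27 (behind C53H9.2). They were the only members with a gap of at most 150 bp, a limit set after the values were seen, and the next smallest gap was 356 bp. None of the 4 had a pooled summit, against 63 of the 74 other members (85.1%). Among all other genes with such a gap, 648 of 1596 (40.6%) had a pooled summit, against 7261 of 18311 (39.7%) of those with a wider one. Each of the 4 genes upstream had a summit in its own window, with a pooled signal of 102.7 (rank 379) at fib-1, which encodes fibrillarin, the methyltransferase guided by one class of snoRNAs. The pooled signal was 77.7 (rank 611) at lias-1, 49.2 (rank 1940) at C53H9.2 and 44.4 (rank 2775) at glit-1.

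Genes that share a ribosomal protein number often differed in signal. The gene rpl-11.2 on chromosome X had 76.9 in the pooled list, 39.8 in replicate 1 and 36.9 in replicate 2. The gene rpl-11.1 on chromosome V, which also encodes a uL5 protein, had 26.8 in the pooled list, 21.1 in replicate 1 and no summit in replicate 2. Of the other numbered pairs, rpl-25.2 had 43.8 and rpl-25.1 no pooled summit, rpl-24.2 had 89.3 and rpl-24.1 had 36.2, and rpl-41.2 had 43.1 and rpl-41.1 had 23.1. In these 4 pairs the second-numbered gene carried the stronger summit in the pooled list. Replicate 2 had the reverse order for the rpl-41 pair, with 25.06 at rpl-41.1 and 20.28 at rpl-41.2. Among genes told apart by a letter, rpl-7 (58.4) and rpl-7A (65.7) were close in the pooled list. Their order differed between replicates, with 43.48 and 36.07 in replicate 1 and 17.53 and 28.41 in replicate 2. The gene rpl-36.A had 38.6 and rpl-36 no pooled summit. A shared number need not mean a copy of the same protein: RefSeq names the product of rpl-7 as uL30 and that of rpl-7A as eL8. A search of RefSeq by gene name found no product for the rpl-24 and rpl-25 genes, and rpl-24.2 resembles a ribosome assembly factor of other species. The pooled signal has no replicate error of its own, and the difference within a pair was not tested.

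The snoRNA genes inside ribosomal protein genes carried few summits. The bodies of 13 members hold 19 snoRNA genes, all on the strand of the host gene. A pooled summit lay within 100 bp of 2 of the 19 (10.5%), against 108 of the 327 other snoRNA genes (33.0%), and an optimal summit within 100 bp of none of the 19, against 50 of the 327 (15.3%). Other protein-coding genes held 164 snoRNA genes on their own strand, and 22 of these (13.4%) had an optimal summit. With 19 genes, a share of 0 allows up to 17.6% by the exact 95% interval, so the shares could not be told apart. The 2 weak summits, with signals of 26.1 and 29.5, lay in rpl-6 at R151.11 and R151.12. No tRNA or small nuclear RNA gene lay in a member body or within 1000 bp upstream.

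A snoRNA, tRNA or small nuclear RNA gene lay within 100 bp of 1 of the 21 optimal member summits. Among the other genes with an optimal summit this held for 69 of 580 (11.9%). These 580 genes can share summits, and with 21 member summits the difference was not tested. The member summit was that of rps-26, which lay 51 bp from the snoRNA gene F39B2.14. The next nearest was the summit of rps-12, which lay 225 bp from F54E7.10, a snoRNA gene in the body of rps-12.

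The sequence ACCGTA was the 6-base sequence whose share at member summits most exceeded that at the other genes' summits among the 3000 strongest, of 2080 compared after joining reverse complements. It was singled out after these shares were seen, and both strands were searched in 101 bp windows. It was present at 16 of 61 member summits (26.2%), against 243 of 6830 other genes' summits (3.56%) and 69 of the 1322 among the 3000 strongest (5.22%). At optimal summits it was present at 8 of 21 for the members (38.1%), namely rpl-3, rpl-15, rpl-20, rps-20, rps-1, rps-23, rpl-43 and rpl-11.2, against 19 of 385 for the other genes (4.94%). When optimal summits alone were compared, CGCTCC exceeded by more, at 9 of 21 for the members (42.9%), against 9.09% for the other genes, and ACCGTA came next. The weaker member summits with it were those of rpl-14, rpl-7, rps-17, rpl-22, rpl-33, rpl-17 and rpl-1 and the shared summit of rps-10 and rpl-24.1. The longer ACCGTAG, which contains it, was at 9 of 61 member summits (14.8%), against 40 of 6830 (0.586%). Promoter sequences were taken from 250 bp upstream to 50 bp downstream of the most upstream 5' end. In them ACCGTA was present in 13 of 78 members (16.7%), against 8.13% of all 19973 nuclear promoters. It was in 3 of 21 member promoters with an optimal summit (14.3%) and in 10 of 57 without one (17.5%). A match describes the letters only and does not show which protein binds.

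Of the other sequences searched, GCGCAC was more frequent at member summits than at those of other genes, and the rest were less frequent or about as frequent. GCGCAC was present at 9 of 61 member summits (14.8%), against 4.07% of other genes' summits, but at optimal summits at 5 of 21 (23.8%), against 18.7%. TAATTA, the core of many homeodomain binding sites, was at 1 of 61 (1.64%), against 7.25%, and at none of the 21 optimal summits, against 5.19%. TATAAA, the letters of a TATA box, was at 6 of 61 (9.84%), against 13.7%. GTTCGA, which lies in the internal promoter of tRNA genes, was at none of 61, against 3.69%, and CTGCGTC at 1 of 61 (1.64%), against 1.83%. The member windows had 41.1% G and C, against 35.1% for other genes' summits, but at optimal summits 45.5%, against 46.4%. In the promoter sequences the shares in members and in all promoters were 6.41% and 5.6% for GCGCAC, 17.9% and 15.6% for TAATTA, 26.9% and 38.0% for TATAAA, 7.69% and 9.91% for GTTCGA, and 1.28% and 4.35% for CTGCGTC.

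Other genes of the translation machinery gave a mixed picture. Of the 78 cytosolic ribosomal protein genes 80.8% had a pooled summit and 26.9% an optimal one. Among 31 translation factor genes these shares were close, with 83.9% and 25.8% (8 genes), and the median pooled signal was 42.6. Among 70 mitochondrial ribosomal protein genes they were 60.0% and 11.4% (8 genes), with a median signal of 37.7, and among 31 aminoacyl-tRNA synthetase genes 74.2% and 6.45% (2 genes), with a median of 35.7. The placement of the pooled summits also differed. The pooled summit lay 100 to 500 bp upstream at 87.3% of the cytosolic ribosomal protein genes with one. This share was 61.5% for translation factors, 52.4% for mitochondrial ribosomal proteins and 52.2% for synthetases. For optimal summits the counts in this band were 18 of 21 for cytosolic ribosomal protein genes and 6 of 8 for translation factors. They were 4 of 8 for mitochondrial ribosomal proteins and 0 of 2 for synthetases. With so few optimal summits, a difference in their placement between these groups was not tested.

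**Figure D4:**
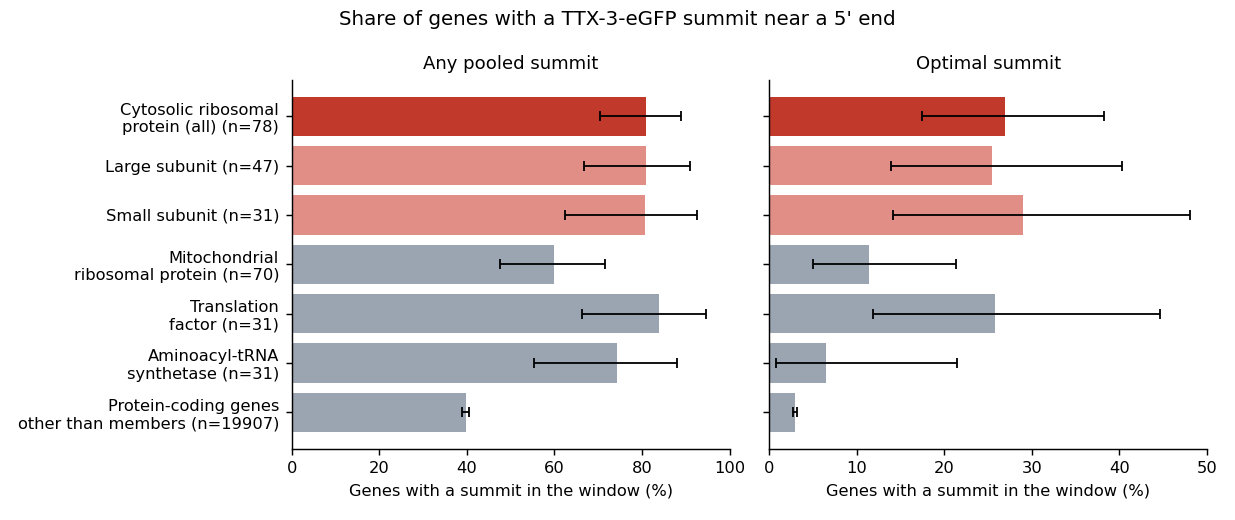
Share of genes (horizontal, %) with a pooled summit (left) or an optimal summit (right) in the promoter window, for ribosomal protein genes (red) and for other gene groups and all other protein-coding genes (grey). Bars start at 0, whiskers are exact 95% binomial intervals over genes; the red bar of all members reaches 80.8% on the left and 26.9% on the right, against 39.7% and 2.91% for the other protein-coding genes.

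The other 6 genes that supply proteins of the cytosolic ribosome had no optimal summit. The gene ubq-2, which encodes ubiquitin fused to a large subunit protein, had a pooled signal of 51.7 (26.4 in replicate 1 and 26.2 in replicate 2). The gene rack-1, for a scaffold protein on the small subunit, had 50.9 (31.8 and 25.7 in the same order). The stalk protein gene rla-2 had 19.8 in the pooled list and 23.6 in replicate 2, with no summit in replicate 1. A summit was found at rla-0 in replicate 2 alone (17.1), at ubl-1, a ubiquitin-like fusion to a small subunit protein, in replicate 1 alone (25.9), and at rla-1 in none of the lists.

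Members were spread over all 6 chromosomes. Their number was 23 on I, 10 on II, 18 on III, 17 on IV, 8 on V and 2 on X, and those with an optimal summit numbered 5, 2, 4, 8, 1 and 1 in the same order. On chromosome IV this was 8 of 17 members (47.1%), against 2.67% of its other genes, and on I it was 5 of 23 (21.7%), against 4.31%. With so few genes a chromosome, the differences between chromosomes were not tested.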

How the data were processed

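TTX-3-eGFP ChIP-seq was measured in 2 biological replicates of whole late embryos. The authors deposited peak lists on ce11: an unfiltered list (peaks plus background) per replicate, 1 such list for both pooled and 1 of optimal peaks after a reproducibility filter (IDR). Per the deposited file descriptions, a control alignment shared by the replicates was used. Neither aligner nor caller, with versions, nor the reproducibility threshold is given in the sources used here. The value used is the signal deposited by the authors in each list, and it was compared within a list only, or between replicates at 1 summit. The ce10 lists were not used here. No read counts are listed, so depth is unknown.

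Summits were placed on WBcel235 with the Ensembl 115 annotation, and product names came from RefSeq. Promoters were shared where a divergent 5' end lay within 1000 bp. Alternatives changed the window, the number of peaks, the replicates used, the assignment of summits and the distances. Scoring was tested on simulated summits. The genes named were all members with an optimal summit or with no pooled summit, the next 5 members by signal, 6 other ribosome genes and the neighbours at shared promoters. The members and lists were chosen with earlier results of these data known, no test was made and shares have exact intervals. Python 3.11.15, numpy 2.4.6, pandas 2.3.3, scipy 1.17.1 and matplotlib 3.10.9 were used.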

Additional observations from a re-analysis of the deposited data

How the results depend on the processing

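No paired analysis was possible because there was 1 group. Of 67 alternative values 40 stayed near the reported one, 27 moved and none reversed. Members with an optimal summit numbered 11 (6 large, 5 small) in a window of 300 bp to each side, where 41 had a pooled summit (background 23.2%), 41 one of replicate 1 (24.6%) and 37 one of replicate 2 (23.8%). The optimal background was 1.8% there. They numbered 7 (4 large, 3 small) among the 350 strongest peaks, with a background of 1.39%. No optimal list exists for a single replicate. Leaving out a replicate therefore used the 700 strongest regions of the other replicate's unfiltered list, which repeats the counts given above. Members with such a region numbered 16 each time (8 to 9 large, 7 to 8 small), with a background of 2.7% to 2.81%. Off chromosome I, 16 of 55 members had an optimal summit (29.1%, background 2.76%). With each summit given to the nearest 5' end, 5 small subunit genes remained, and no background was computed for this rule. The median signal was 52.1 in a window reaching 2000 bp upstream, and 26.21 to 30.04 in single replicates, whose scale differs. The median distance was −266 bp (500 bp upstream to 100 bp downstream), −224 bp (300 bp to each side), −299 bp (2000 bp upstream) and −302 to −289 bp without a replicate. Within 250 or 500 bp, 2 optimal summits had a snoRNA or tRNA gene. With 5' ends within 500 bp, 19 members shared a promoter, 6 with an optimal summit. The share over all protein-coding genes was not computed for these distances, so these counts have no background. At summits in place of promoters, GCGCAC was at 14.8%, TAATTA at 1.64%, GTTCGA at 0% and TATAAA at 9.84%. The longer ACCGTAG, chosen after seeing the data, was at 14.8%. The cause was not tested. The limits are 2 replicates, an unknown depth and, since all values come from whole embryos, no view of single cell types.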
